A study of Homo sapiens with 17 samples.

Results

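The small MAF factors and their partners are described here as 5 genes of the 19867 in a table of newly made RNA: the small MAF genes MAFF (ENSG00000185022), MAFG (ENSG00000197063) and MAFK (ENSG00000198517), and the partner genes BACH1 (ENSG00000156273) and NFE2L1 (ENSG00000082641). All 5 were found by Ensembl ID. The set was chosen by gene family around MAFF, which was selected on its lower counts with VT107 than with DMSO, and on counts that were all multiples of 5. Values of VT107 against DMSO are therefore given for all 5 genes as a description, with no test.

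The cells were SNU-761, an established human liver carcinoma line, labelled wild type in every group. New RNA was measured by SLAM-seq: cells build thiouridine into what they transcribe, and after alkylation sequencing shows these bases as T-to-C changes. Groups were VT107 at 0.1 µM and at 2.15 µM (2 libraries each), VT107 being a small molecule that blocks the TEAD transcription factors, with DMSO (2 libraries) as vehicle. In a separate experiment they were intetumumab at 1.5 µg/ml and at 5 µg/ml (3 libraries each), here a biosimilar of an antibody against integrins that hold the ITGAV chain, with an isotype IgG1 at 5 µg/ml (3 libraries) as control. All 15 of these libraries came from labelled cells taken 4 h into treatment, and each experiment also had 1 unlabelled library of untreated cells. Labelled libraries held 435343 to 1778876 counts. Nothing in the labels says that replicates were separate cultures, so p-values measure the spread between these libraries, which may be technical. Counts of replicates spread more widely than sampling would give if each count were a separate read (chi-square per degree of freedom 3.66 to 8.52 over all pairs). Counts that share a common divisor, described below, were not divided for this value. If reads were counted more than once they raise it, so it does not measure extra spread between libraries alone.

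Small MAF proteins are basic leucine zipper factors that bind DNA but lack a transactivation domain of their own. As homodimers they repress, and the partner decides what a heterodimer does. With NFE2L1 or NFE2L2 (NRF2) they activate genes that carry antioxidant response elements, and with BACH1 they repress many of the same genes until heme displaces BACH1. NFE2L1 is anchored in the endoplasmic reticulum until it is processed, and it drives genes of proteasome subunits. MAFF can be induced by stress and by inflammatory cytokines.

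On build GRCh38.p14 the RefSeq annotation places MAFF on chromosome 22 (38201994 to 38216511), MAFG on chromosome 17 (81918270 to 81931244), MAFK on chromosome 7 (1530702 to 1543043), BACH1 on chromosome 21 (29298922 to 29361894) and NFE2L1 on chromosome 17 (48048359 to 48061545). MAFF overlaps the minus-strand gene TMEM184B, MAFK overlaps TMEM184A and LOC100128653, and MAFG overlaps MAFG-AS1 and MILIP on the opposite strand. Whether the authors counted by strand is not given in the sources used here, so reads of these genes and of their overlapping partners may not be separable. BACH1 and NFE2L1 overlap no other annotated gene.

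New RNA reflects transcription less any decay since labelling, which cannot be told apart here. The bases just upstream of a gene start are shown for the 2 members in which a searched motif was found. Both are on the plus strand of GRCh38.p14, from RefSeq, and capitals mark the matches. The first is chr22:38201744-38201993 (MAFF) and the second is chr21:29298672-29298921 (BACH1).
MAFF: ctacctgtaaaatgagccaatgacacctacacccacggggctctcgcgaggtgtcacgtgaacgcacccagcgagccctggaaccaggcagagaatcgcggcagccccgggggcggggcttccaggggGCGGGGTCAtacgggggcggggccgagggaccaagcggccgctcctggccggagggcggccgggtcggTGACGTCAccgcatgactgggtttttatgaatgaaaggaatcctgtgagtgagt
BACH1: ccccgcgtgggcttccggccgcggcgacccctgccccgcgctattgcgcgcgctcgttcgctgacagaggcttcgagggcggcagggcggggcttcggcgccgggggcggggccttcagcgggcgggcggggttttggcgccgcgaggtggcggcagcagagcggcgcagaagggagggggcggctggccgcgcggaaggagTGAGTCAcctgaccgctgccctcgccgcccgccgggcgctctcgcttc

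The search covered both strands of the 250 bases before each start for TGACGTCA (the cAMP response element), TGACNNNGC (the core of the antioxidant response element, which small MAF heterodimers bind), TGANTCA (AP-1), GGAATG (TEAD) and the CArG box of SRF. No 2 of the matches overlapped. MAFF held TGACGTCA 54 to 47 bases upstream and an antioxidant response element core on the other strand 122 to 114 bases upstream. Among 35116 RefSeq promoter windows of this length, 1.65% hold TGACGTCA and 10.9% hold TGACNNNGC. BACH1 held TGAGTCA 48 to 42 bases upstream, and TGANTCA is in 6.57% of windows. The TEAD motif GGAATG (11.9% of windows) and the CArG box (1.16%) were in none of the 8 windows of MAFF, MAFG, BACH1 and NFE2L1. MAFF, BACH1 and NFE2L1 each have a window at the annotated gene start and others inside the gene. The only window of MAFG (81927736 to 81927985, minus strand) lies inside the gene, so the bases before its annotated start were not searched. The table has no window for MAFK. A match is a string of letters and was not tested as a bound site.

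Among the small MAF genes, MAFF and MAFK stood lower with VT107 than with DMSO at both doses, while the levels of MAFG overlapped. Levels are counts per 1000000 after TMM scaling (CPM), which allows for library size and assumes that most genes do not change. MAFF had 1647 and 1334 CPM in DMSO, 759.7 and 753.7 CPM at 0.1 µM and 530.3 and 489.7 CPM at 2.15 µM. Both DMSO libraries were above both libraries of each dose, and the lower dose lay above the higher one without overlap. The fitted log2 fold change of MAFF was -1.55 (SE 0.18) at 2.15 µM, a level 2.92-fold lower than in DMSO, and -0.98 (SE 0.18) at 0.1 µM, or 1.97-fold lower. Under total count scaling these values were -1.39 at 2.15 µM and -0.87 at 0.1 µM. Both doses are set against the same 2 DMSO libraries. RNA was taken from bulk cells, so fewer cells making a transcript and less of it per cell cannot be told apart.

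MAFK, known as a partner of the erythroid factor NFE2, had 988 and 619.5 CPM in DMSO, 345 and 323 CPM at 0.1 µM and 354 and 315 CPM at 2.15 µM. Its libraries at both doses were below both DMSO libraries, and the doses overlapped each other. Its log2 fold change was -1.26 (SE 0.25) at 2.15 µM and -1.27 (SE 0.25) at 0.1 µM. The DMSO libraries of MAFK differed from each other by more than those of MAFF, and without DMSO replicate 1 the values were -0.88 and -0.89. Under total count scaling of all libraries they were -1.10 and -1.16.

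MAFG had 361 and 392 CPM in DMSO, 319 and 507.5 CPM at 0.1 µM and 366 and 311 CPM at 2.15 µM. The 3 groups overlapped, and the log2 fold change was -0.15 (SE 0.26) at 2.15 µM and 0.13 (SE 0.26) at 0.1 µM. Under total count scaling the value at 2.15 µM was 0.0028.

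The levels of both partners overlapped those in DMSO. BACH1, the heme-sensing repressor, had 62.2 and 63.8 CPM in DMSO, 80.1 and 50.2 CPM at 0.1 µM and 79.0 and 52.4 CPM at 2.15 µM. In each VT107 group 1 library was above and 1 below the DMSO pair, and the log2 fold change was 0.07 (SE 0.38) at 2.15 µM and 0.05 (SE 0.39) at 0.1 µM. NFE2L1, the proteasome gene activator, had 64.4 and 187 CPM in DMSO, 236 and 106 CPM at 0.1 µM and 129 and 136 CPM at 2.15 µM. Its DMSO replicates lay further apart than any group means. Its log2 fold change at 2.15 µM was 0.07 (SE 0.51) over all libraries, -0.49 without DMSO replicate 1 and 1.04 without DMSO replicate 2. At 0.1 µM it was 0.44 (SE 0.52).

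Of the 5 genes, 2 lay below every DMSO library at 2.15 µM and 2 at 0.1 µM, against 20.6% and 19.3% of the 10083 genes tested. Because MAFF was chosen for this contrast, nothing is read from these counts. The median log2 fold change of the 5 genes was -0.15 at 2.15 µM and 0.05 at 0.1 µM, beside 0.03 and 0.0089 over all genes.

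**Figure D1:**
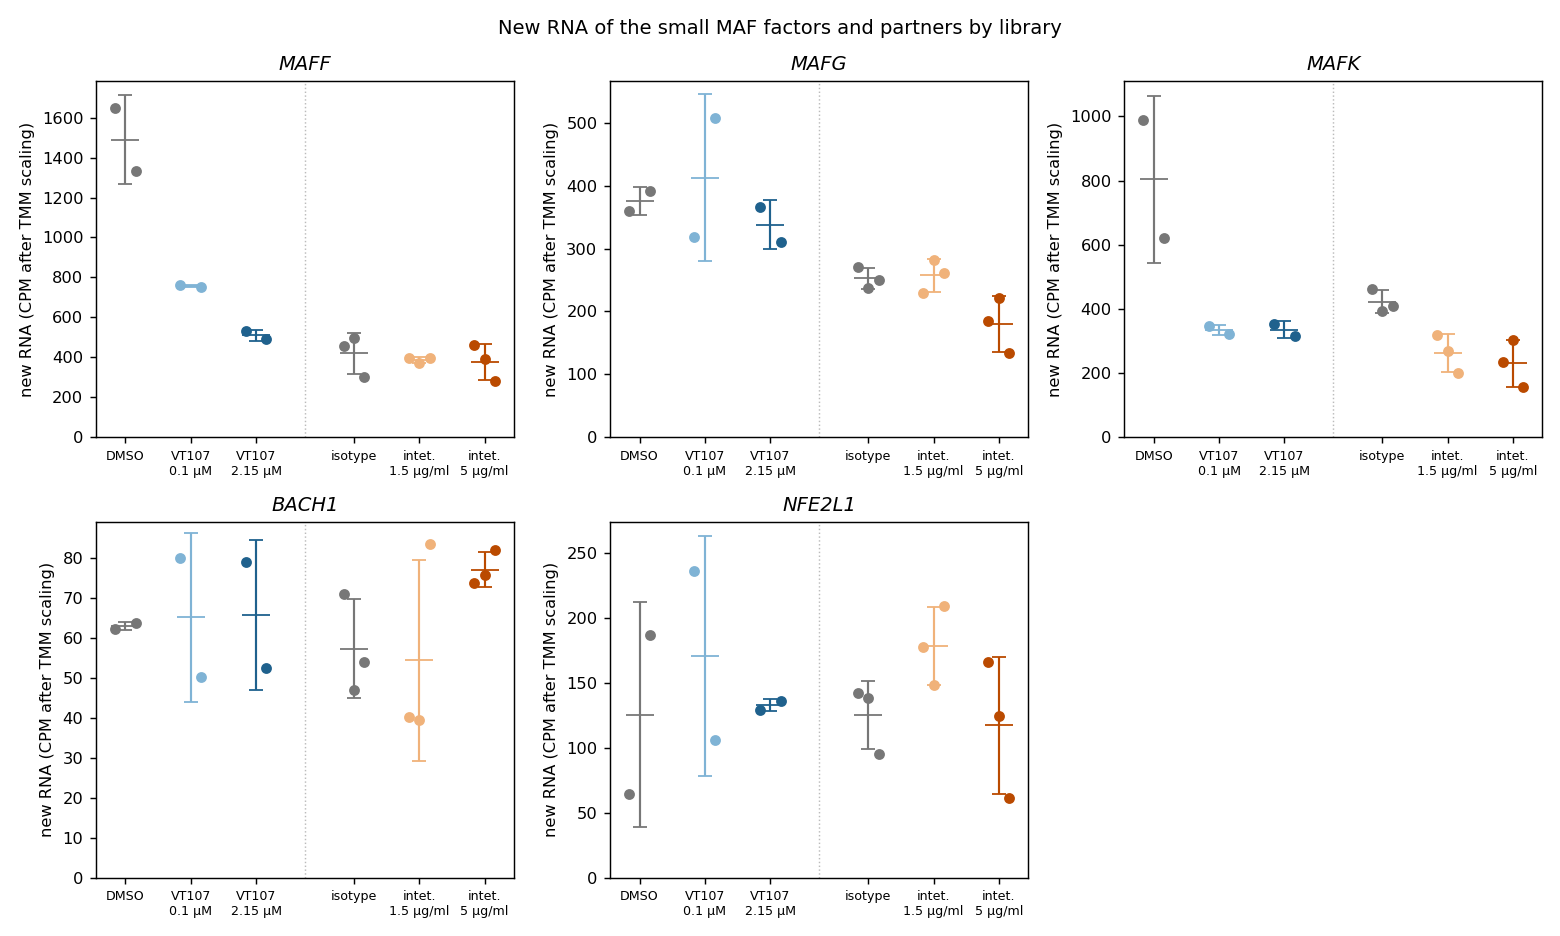
New RNA of each gene in every labelled library, in CPM after TMM scaling on the vertical axis, by treatment group on the horizontal axis. Points are libraries, horizontal marks are means and bars are 1 SD (n = 2 in the VT107 experiment, n = 3 in the intetumumab experiment, which was scaled apart). MAFF steps down over DMSO (1491 CPM), 0.1 µM (757 CPM) and 2.15 µM (510.0 CPM), and MAFK in every intetumumab library lies below its isotype libraries.

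The control groups of the experiments stood at different levels. With all 15 labelled libraries scaled together, MAFF averaged 1516 ± 251 CPM in DMSO (SD, n = 2) and 411 ± 98.6 CPM with the isotype (SD, n = 3). MAFK averaged 819 ± 279 CPM in DMSO and 414 ± 34.5 CPM with the isotype, and MAFG averaged 382 ± 16.2 CPM in DMSO and 249 ± 16.3 CPM with the isotype. All 3 small MAF genes were thus higher in every DMSO library than in every isotype library. The share of all genes that stood so was not counted, so this is not read as particular to them. BACH1 averaged 64.0 CPM in DMSO and 56.3 CPM with the isotype, and NFE2L1 averaged 127 CPM and 123 CPM. The libraries of both partners overlapped between the controls. Control agent and experiment differ together between these groups and cannot be told apart.

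The doses of VT107 were compared directly, a difference that does not use the DMSO libraries but shares its treated libraries with the contrast above. MAFF was chosen on those libraries, so its value between the doses is a description, with no p. By edgeR's quasi-likelihood test with Benjamini-Hochberg adjustment, 0 of the other 4 genes were called at an adjusted p under 0.05, as were 0% of 10083 genes. DESeq2 also called 0 of these 4, and its calls over all genes were not counted. None of the 4 had an unadjusted edgeR p under 0.05 (0.295 for MAFG to 0.989 for MAFK), where 534 of all genes did. MAFF averaged 510.0 ± 28.7 CPM at 2.15 µM and 757 ± 4.25 CPM at 0.1 µM (SD, n = 2 each). Its log2 fold change was -0.57 with an SE of 0.18, and its groups did not overlap, in the lower direction, as in 19% of genes. None of the other 4 genes had such a gap. MAFK showed a log2 fold change of 0.0035 between the doses, with a 95% interval from -0.57 to 0.58, which leaves room for changes of up to about 1.49-fold in either direction.

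With intetumumab MAFK was lower than with the isotype in every library at both doses, which passed the test only with DESeq2 at 5 µg/ml. At 5 µg/ml MAFK had 233, 302 and 155 CPM, against 462, 394 and 409 CPM with the isotype. At 1.5 µg/ml it had 317, 268 and 198 CPM. The doses overlapped each other. Against the isotype its mean was 1.84-fold lower at 5 µg/ml (log2 fold change -0.88, SE 0.24, unadjusted p = 0.00294), which edgeR's quasi-likelihood test did not call after Benjamini-Hochberg adjustment (adjusted p = 0.279). DESeq2 did call it (log2 fold change -0.87, adjusted p = 0.0208), along with 2.41% of the 2901 genes it adjusted, counting falls only. Over 14 alternatives the gene was lower in all 14, with adjusted p from 0.0208 to 0.535. At 1.5 µg/ml the log2 fold change was -0.68 (SE 0.24, unadjusted p = 0.0129, edgeR adjusted p = 0.751), and DESeq2 gave an adjusted p of 0.177. Both doses are set against the same 3 isotype libraries.

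MAFG stood lower at 5 µg/ml in every library but was not called. It had 184, 222 and 133 CPM at 5 µg/ml, against 271, 237 and 250.5 CPM with the isotype, and no library overlapped. Its log2 fold change was -0.49 (SE 0.20, unadjusted p = 0.0298, edgeR adjusted p = 0.483), and it did not pass the test. At 1.5 µg/ml it had 230.0, 281 and 261 CPM, which overlapped the isotype (log2 fold change 0.03, 95% interval -0.40 to 0.46). Between the doses its log2 fold change was -0.52 (SE 0.20, unadjusted p = 0.0239, edgeR adjusted p = 0.846), again without overlap.

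MAFF overlapped its isotype levels at both antibody doses. It had 461, 392 and 282 CPM at 5 µg/ml and 397, 371 and 397 CPM at 1.5 µg/ml, against 458, 497 and 302 CPM with the isotype. The log2 fold change was -0.15 at 5 µg/ml (95% interval -0.62 to 0.31, edgeR adjusted p = 0.872) and -0.11 at 1.5 µg/ml (95% interval -0.57 to 0.35, edgeR adjusted p = 0.994). The interval at 5 µg/ml runs from 0.652 to 1.24 times the isotype level. Whether the effects of intetumumab and VT107 on MAFF differ was not tested, since MAFF was chosen on its VT107 values.

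Of the partners, neither was called at either dose. BACH1 had 73.7, 75.7 and 82.0 CPM at 5 µg/ml, against 71.1, 46.9 and 54.0 CPM with the isotype, so that its libraries lay above the isotype without overlap (log2 fold change 0.43, SE 0.32, edgeR adjusted p = 0.719). At 1.5 µg/ml it had 40.4, 39.4 and 83.5 CPM, and replicate 3 alone was above the isotype (log2 fold change -0.11, SE 0.32). NFE2L1 had 178, 148 and 209 CPM at 1.5 µg/ml, against 142, 138 and 95.01 CPM with the isotype, and was higher without overlap (log2 fold change 0.51, SE 0.31, edgeR adjusted p = 0.946). At 5 µg/ml it had 166, 124 and 61.5 CPM, spread over a wider range than the isotype (log2 fold change -0.12, SE 0.32). None of these values passed the test.

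Over the intetumumab comparisons edgeR called 0 of 5 members at 5 µg/ml, 0 at 1.5 µg/ml and 0 between the doses, where it called 0.0887%, 0% and 0.0111% of 9024 genes. DESeq2 called 1 member at 5 µg/ml (MAFK), 0 at 1.5 µg/ml and 0 between the doses, and gave BACH1 no adjusted p against the isotype. At 5 µg/ml it called 2.41% of 2901 genes as lower, and its calls over all genes in the other comparisons were not counted. An unadjusted p under 0.05 was reached by 2 members at 5 µg/ml (MAFK and MAFG), 1 at 1.5 µg/ml (MAFK) and 1 between the doses (MAFG), beside 833, 494 and 509 of all genes. At 5 µg/ml 2 members lay below every isotype library, as did 8.26% of genes, and 1 lay above, as did 7.64%. At 1.5 µg/ml 1 lay below, as did 6.72% of genes, and 1 above, as did 5.62%. Between the doses 1 lay below, as did 5.34%. The median log2 fold change of the 5 genes was -0.15 at 5 µg/ml, -0.11 at 1.5 µg/ml and -0.19 between the doses, while the medians over all genes were 0.0035, 0.0081 and -0.0040.

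**Figure D2:**
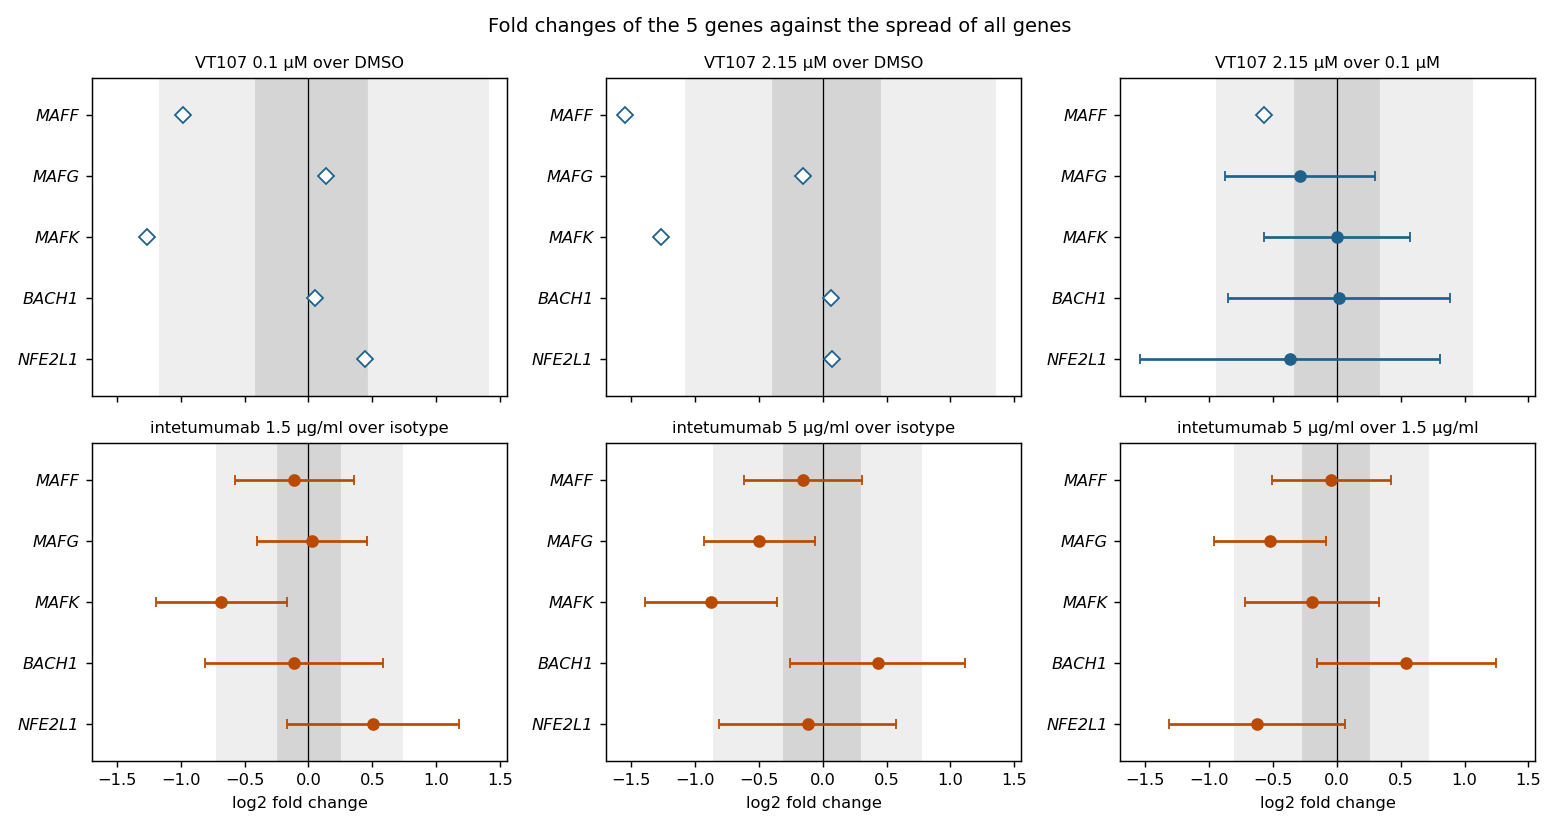
Log2 fold changes of the 5 genes in 6 comparisons, named above each panel with the first group over the second. Filled points carry 95% intervals from the edgeR fit, and open diamonds mark values that have no test: all genes in the contrasts used to choose MAFF, and MAFF between the VT107 doses. The light band runs from percentile 5 to 95 of all genes tested and the dark band from 25 to 75. MAFK lies at -0.88 and -0.68 with intetumumab, where MAFF lies at -0.15 and -0.11.

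Replicate 3 at 5 µg/ml had the lowest value of the 9 labelled libraries of its experiment for MAFF, MAFG, MAFK and NFE2L1, but not for BACH1. Its total of 783734 counts was the highest of its group. Without it the log2 fold change at 5 µg/ml was -0.65 for MAFK (edgeR adjusted p = 0.494), -0.31 for MAFG (0.742) and 0.02 for MAFF (0.984). What sets this library apart was not tested.

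Ratios between genes within a library do not depend on how libraries are scaled, and a constant factor in the counts of MAFF drops out when groups are compared. The ratio of MAFF counts to those of MAFG and MAFK together averaged 1.27 ± 0.0685 in DMSO, 1.03 ± 0.167 at 0.1 µM and 0.759 ± 0.0319 at 2.15 µM (SD, n = 2 each). The DMSO ratios were the highest and those at 2.15 µM the lowest, without overlap between any of these groups. This is again the contrast on which MAFF was chosen. With intetumumab it averaged 0.944 ± 0.180 at 5 µg/ml and 0.755 ± 0.0977 at 1.5 µg/ml, against 0.624 ± 0.165 with the isotype (SD, n = 3 each). These groups overlapped, and two-sided exact permutation tests gave p = 0.2 at 5 µg/ml, p = 0.4 at 1.5 µg/ml and p = 0.2 between the doses, or 0.3, 0.4 and 0.3 adjusted over 3 comparisons. With 3 libraries against 3 the smallest p possible is 0.1.

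**Figure D3:**
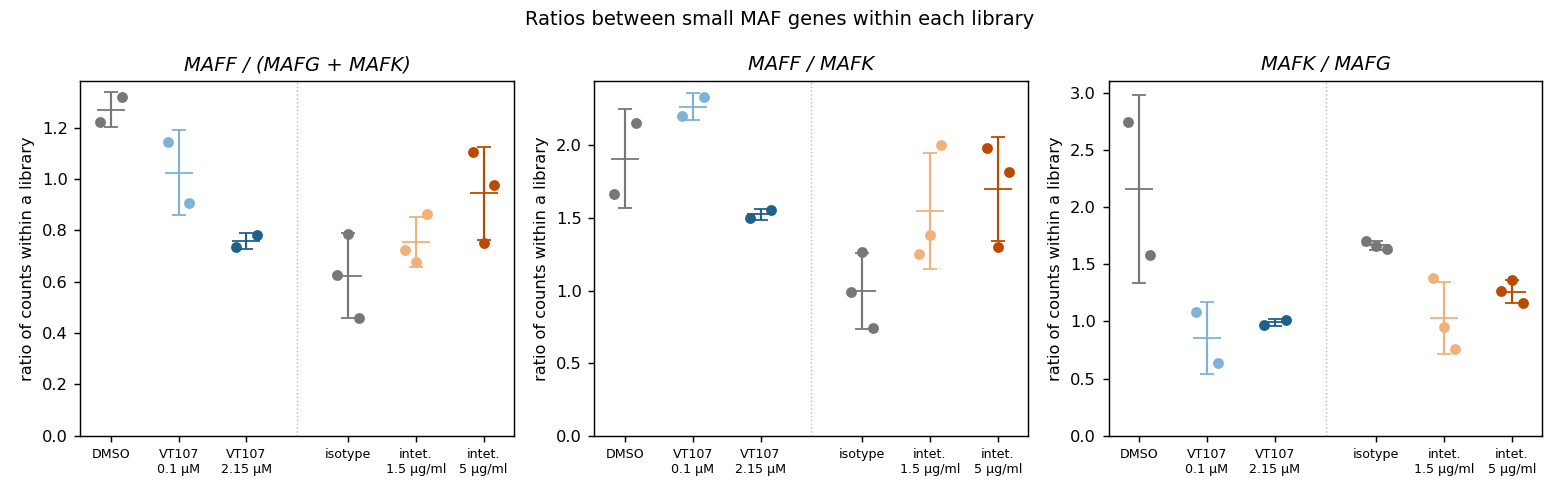
Ratios of counts between small MAF genes in each labelled library, by treatment group. Points are libraries, marks are means and bars are 1 SD (n = 2 or 3). MAFF over MAFG plus MAFK is lowest in its experiment at VT107 2.15 µM (0.759), and MAFK over MAFG is highest in each experiment in the control group (2.16 in DMSO, 1.67 with the isotype).

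The counts behind these levels were unequal in kind. All 15 labelled counts of MAFF were multiples of 5, from 190 to 1535, so that between 38 and 307 reads would lie behind them if each read was counted 5 times. BACH1 counts, from 30 to 146, were all even. NFE2L1 counts were all multiples of 4 in the intetumumab experiment (48 to 132) and shared no divisor in the VT107 experiment. MAFG (80 to 676) and MAFK (95 to 921) shared none. Of 9757 genes examined, 1456 (14.9%) had such a divisor over all labelled libraries and 72 had a divisor of 5. How these multiples arose was not tested. Dividing each gene by its divisor left the log2 fold change of MAFF at 2.15 µM at -1.54.

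Few or no counts of the members came from unlabelled cells. The unlabelled library of the VT107 experiment held 10 counts of MAFF (2 after division by 5), 1.04% of its labelled mean of 962.5, and 2 counts of MAFK. It held 0 counts of MAFG, BACH1 and NFE2L1, and the unlabelled library of the intetumumab experiment held 0 counts of all 5 genes. If each count is a separate read, a count of 0 allows for up to 3 counts, by counting error alone. For genes whose counts share a divisor (MAFF, BACH1, and NFE2L1 in the intetumumab experiment) the limit would be higher if reads were counted more than once. Over all genes the unlabelled totals were also low, at 10702 counts (VT107) and 4553 counts (intetumumab). Each labelled library held at least 435343 counts. Low counts of the members are therefore not read as particular to them, and whether their share differs from that of all genes was not tested.

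To find genes that varied like MAFF, each library was taken as its log2 difference from the mean of its experiment, over all 15 labelled libraries and 8847 genes. The genes most like MAFF were ENSG00000167470 (Pearson's r 0.929, Spearman's rho 0.854) and ENSG00000163159 (r 0.904, rho 0.793), neither of which the files pair with a name. For ENSG00000167470 r was 0.982 over the 6 VT107 libraries and 0.766 over the 9 intetumumab libraries, and it was 0.864 without the 2 libraries farthest from the median of MAFF. For ENSG00000163159 the same values were 0.992, 0.517 and 0.800. Among the members MAFK ranked 128 (r 0.720, rho 0.643), with 0.916 over the VT107 libraries and 0.419 over the intetumumab libraries. Over all 15 libraries MAFG had r of 0.249, NFE2L1 0.02 and BACH1 -0.05. For NFE2L1 the experiments went opposite ways, with r of -0.327 over the VT107 libraries and 0.722 over the intetumumab libraries. Without the 2 farthest libraries its r was 0.520. MAFG had 0.208 over the VT107 libraries and 0.407 over the intetumumab libraries, and BACH1 had -0.01 and -0.11. These libraries fall into treatment groups, and the values describe likeness only.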

How the data were processed

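The authors deposited whole-number counts per Ensembl gene ID for 17 libraries, made with the SLAM DUNK pipeline from reads of newly made RNA, per the series' design text, and placed on GRCh38, per the submitters' processing notes. The libraries were QuantSeq 3′ libraries, per the labels' protocols. The sources used here do not state the pipeline version, the annotation, the threshold on T>C changes, the strand setting or how reads with several matches were counted. All 17 columns were matched to samples by name.

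The experiments were fitted apart, with edgeR 4.0.16 in R 4.3.3, over genes that passed filterByExpr (minimum count 10): 10083 genes for VT107 and 9024 for intetumumab. All 5 members passed in both. Counts were scaled by TMM and tested with the two-sided quasi-likelihood F-test, with Benjamini-Hochberg adjustment over all genes tested and calls at an adjusted p under 0.05. Alternatives were total count scaling, DESeq2 1.42.0 on the same genes, no filter, other sets of samples, a replicate block, division by common divisors and leaving out each library. Common divisors were sought in genes that had counts in 8 or more libraries and reached 20 counts. The 95% intervals come from the edgeR fit and include the spread between libraries, while the limit given for a count of 0 covers counting error only, as counts carry no molecular identifiers.

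The members, lists and tests were chosen with earlier results of these data known. The rule for naming was all 5 members, plus the 2 genes most like MAFF. Neither the count table nor the RefSeq table used here (0 genes with an Ensembl ID) pairs IDs with symbols: the names of the 5 IDs come from the list that defined the set. Lists of other partners, their targets and cell type markers, fixed by symbol, were therefore not analysed here. Same-numbered replicates did not deviate together (correlations of deviations -0.0238 to 0.0653), so the numbers were not taken to pair libraries.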

Additional observations from a re-analysis of the deposited data

Results flagged for a closer look

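MAFF had 10 counts in the unlabelled library of the VT107 experiment, out of 10702 in total and beside a labelled mean of 962.5. The limit of 3 belongs to genes with a count of 0 and is no measure for MAFF. The 10 counts are a multiple of 5, like those of MAFF in the labelled libraries, and divided by 5 they come to 2. This library is outside the comparisons, and what gave rise to them was not tested.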

How the results depend on the processing

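Of 470 alternative values over 40 results, 440 kept their direction and their side of the threshold, or moved by less than the spread between replicates. DESeq2 called 1 member (MAFK) at intetumumab 5 µg/ml, where edgeR called 0, and the members called in the other tested comparisons stayed at 0 in every alternative. Without 1 library at a time, the log2 fold change of MAFF against DMSO ran from -1.69 to -1.38 at VT107 2.15 µM and from -1.13 to -0.82 at 0.1 µM, each time weakest without DMSO replicate 1. In the tested comparisons the sign turned in 18 values, all of members that had not passed the test and none beyond 0.344 in size. Of these, 2 came from another fit: MAFK between the VT107 doses was -0.0050 with DESeq2 and -0.00059 with the replicate block, against 0.0035. The other 16 came from leaving out 1 library. Between the VT107 doses these ranges were -0.078 to 0.092 for MAFK, -0.31 to 0.41 for BACH1, -0.82 to 0.34 for NFE2L1 and -0.57 to 0.091 for MAFG. At intetumumab 5 µg/ml they were -0.35 to 0.024 for MAFF and -0.43 to 0.21 for NFE2L1. At 1.5 µg/ml they were -0.52 to 0.078 for BACH1, -0.049 to 0.10 for MAFG and -0.30 to 0.028 for MAFF, and between the antibody doses -0.20 to 0.13 for MAFF and -0.46 to 0.034 for MAFK. Against DMSO, where no test was made, MAFG, BACH1 and NFE2L1 also crossed 0 in some alternatives: over all of them they ran from -0.28 to 0.0028, -0.26 to 0.33 and -0.49 to 1.04 at 2.15 µM, and from -0.24 to 0.42, -0.33 to 0.34 and -0.26 to 1.40 at 0.1 µM. The replicate block changed no call of a member. The cause of these shifts was not tested. Groups had 2 or 3 libraries, and BACH1 as few as 30 counts in a library. The 95% intervals of both partners ran from a fall to a rise in every tested comparison. For BACH1 at intetumumab 5 µg/ml the interval of the log2 fold change was -0.25 to 1.12.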

Other observations

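Ratios between single small MAF genes were looked at after the data were seen, so they are given as values with no test. MAFK counts over MAFG counts were 1.26, 1.36 and 1.16 at intetumumab 5 µg/ml and 1.38, 0.951 and 0.760 at 1.5 µg/ml, against 1.71, 1.66 and 1.63 with the isotype. Every antibody-treated library was below the isotype range, and the isotype libraries were close to each other. With VT107 the same ratio was 2.74 and 1.58 in DMSO, 1.08 and 0.636 at 0.1 µM and 0.967 and 1.01 at 2.15 µM. MAFK therefore stood lower relative to MAFG than in its control in each of the 10 treated libraries. The treated libraries of an experiment share the same few controls, so they are not 10 separate comparisons. How many other pairs of genes behaved so was not counted, and nothing further is read from this.

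MAFF over MAFK is given with VT107 as values only, since MAFF was chosen on these libraries. The ratio was 1.67 and 2.15 in DMSO, 2.20 and 2.33 at 0.1 µM and 1.50 and 1.55 at 2.15 µM. At 0.1 µM both ratios were above both DMSO ratios, and at 2.15 µM both were below them. The DMSO ratios differed from each other by more than either gap. The counts of 289 genes shared a divisor above 1 in the intetumumab experiment but not in the VT107 experiment, NFE2L1 among them.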
